A study of Mus musculus with 8 samples.

Results

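The let-7 family was followed here in the skin of mice that lose nicastrin in their keratinocytes. The 9 members are mmu-let-7a-5p, mmu-let-7b-5p, mmu-let-7c-5p, mmu-let-7d-5p, mmu-let-7e-5p, mmu-let-7f-5p, mmu-let-7g-5p, mmu-let-7i-5p and mmu-miR-98-5p, written below without the prefix for mouse and chosen by name from the 1881 mouse miRNAs on the array. The series holds 8 microarrays, 4 of NcstnΔKC skin and 4 of normal skin. All mice were male and carried Ncstn flx/flx and Krt14 CreER+/-, that is, floxed Ncstn and a tamoxifen-inducible Cre recombinase driven by the promoter of keratin 14, a gene of basal keratinocytes. NcstnΔKC mice were given tamoxifen from 8 weeks of age, 20 mg per kg of body weight daily for 5 days and then every 10 days by gavage. The normal mice had the same genotype and were given corn oil, so the drug itself and the deletion it induces cannot be told apart. Skin, which the labels call lesional, was excised at 16 weeks. The labels number 4 samples per group without saying that each came from its own mouse, and each p-value therefore rests on sample-to-sample spread that may be only technical. The arrays measure no mRNA, so the loss of Ncstn itself was not checked here.

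Nicastrin is a subunit of gamma-secretase, the protease that releases the active domain of Notch receptors. A miRNA is a short RNA that guides Argonaute to messenger RNAs, mostly by pairing through its seed, bases 2 to 8. The let-7 miRNAs share 1 seed and so can pair with the same kinds of site, among them sites in Hmga2, Lin28 and Ras messages. They are abundant in differentiated tissues, and LIN28 proteins block the maturation of their precursors.

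The mature sequences are shown because the members differ by very few bases, which bears on what each probe can tell apart. All 9 matched the RefSeq table (build GRCm38.p6). They are printed 5′ to 3′ with the seed in capitals, and every one is 22 bases long with the seed GAGGUAG.
let-7a-5p: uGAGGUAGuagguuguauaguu
let-7b-5p: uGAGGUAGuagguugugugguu
let-7c-5p: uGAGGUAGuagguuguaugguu
let-7d-5p: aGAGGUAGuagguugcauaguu
let-7e-5p: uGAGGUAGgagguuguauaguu
let-7f-5p: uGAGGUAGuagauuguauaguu
let-7g-5p: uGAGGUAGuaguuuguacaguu
let-7i-5p: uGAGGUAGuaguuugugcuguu
miR-98-5p: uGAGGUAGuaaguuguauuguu

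Counted from the 5′ end, with the base of let-7a-5p first, let-7c-5p differs from let-7a-5p by A19G alone and let-7b-5p by A17G and A19G. Only let-7b-5p and let-7c-5p of the 9 have G at that last position. Single changes also set apart let-7e-5p (U9G) and let-7f-5p (G12A), while let-7d-5p carries U1A and U16C. The more distant members are let-7g-5p (G12U and U18C), miR-98-5p (G11A and A19U) and let-7i-5p (G12U, A17G, U18C and A19U).

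Each member had 2 DNA probes, complementary to 18 to 22 bases of the mature miRNA counted from its 3′ end. The probes of let-7b-5p, let-7c-5p and let-7e-5p, on which the results below turn, are given next to a probe of let-7a-5p, with capitals at the bases that differ from it.
let-7a-5p probe: aactatacaacctactacc
let-7b-5p probe: aacCaCacaacctactacc
let-7c-5p probe: aacCatacaacctactacc
let-7e-5p probe: aactatacaacctCctacc

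Over the length of its probes, the nearest other member differed by 1 base for let-7a-5p to let-7f-5p and by 2 bases for let-7g-5p, let-7i-5p and miR-98-5p. Part of a probe's signal can therefore come from a near-identical relative, how much was not tested, and levels of single members are uncertain to that extent. Signals of different probes are not a ranking of molecules, since brightness depends on the probe.

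The 9 members come from 12 hairpins at 8 loci (RefSeq, GRCm38.p6). Mirlet7a-1 (chr13:48538179-48538272, minus strand) lies 261 bases from Mirlet7f-1 (chr13:48537829-48537917) and 2064 bases from Mirlet7d (chr13:48536012-48536114). Mirlet7c-2 (chr15:85706603-85706697, plus strand) and Mirlet7b (chr15:85707319-85707403) lie 621 bases apart within the span of the long noncoding RNA Lncppara. Mirlet7c-1 (chr16:77599657-77599750) is 656 bases from Mir99a and shares its neighbourhood with Mir125b-2. Mirlet7a-2 (chr9:41536716-41536811) lies within the long noncoding RNA Mir100hg, 5211 bases from Mir100 and further from Mir125b-1. Mirlet7e (chr17:17830352-17830444) is within the span of Spaca6, 94 bases from Mir99b and 367 bases from Mir125a. Mirlet7f-2 (chrX:151912346-151912428) and Mir98 (chrX:151913214-151913321) are 785 bases apart within Huwe1. Mirlet7g (chr9:106178840-106178927) lies within Wdr82, and Mirlet7i (chr10:122985640-122985724) had no other hairpin within 60000 bases. The mature members, let-7a-5p, let-7c-5p and let-7f-5p, are each made from a pair of hairpins at different loci, and the arrays cannot tell which one supplied the signal.

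All 8 arrays were on 1 slide, with normal samples in 1 row and NcstnΔKC samples in the other, and position on the slide cannot be told apart from group. Detection ranged from 198 to 273 miRNAs per array, and their number of arrays, 4 per group, limits the precision. Summed keratinocyte miRNAs made up 4.66% to 6.27% of the detected signal in normal skin and 4.99% to 6.38% in NcstnΔKC skin, with 4 of the 7 listed markers lower. Striated muscle miRNAs made up 4.25% to 16.8% and 1.35% to 8.46%, with 1 of 5 lower, and with normal 1 low and NcstnΔKC 1 high for their groups. White blood cell miRNAs held 0.404% to 0.532% in normal skin and 0.601% to 1.84% in NcstnΔKC skin, and 2 of the 5 listed were higher by the test described below. The fibroblast and smooth muscle list held 1.08% to 1.84% and 1.97% to 2.94%, with 3 of 5 higher and 1 lower. The ranges were 0.139% to 0.441% and 0.228% to 0.614% for red blood cell miRNAs, with 1 of 2 lower (miR-486a-5p, detected on 1 of 4 NcstnΔKC arrays), and 0.544% to 0.612% and 0.600% to 0.735% for the endothelial ones, with 0 of the 1 tested passing. No listed marker was undetected on every array. The part of this mix in the let-7 results was not tested, and in whole skin fewer cells of a type and less RNA per cell cannot be told apart.

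In NcstnΔKC skin, let-7b-5p and let-7c-5p fell, while none of the other 7 members passed the test. The fall was 1.69-fold for let-7b-5p and 1.54-fold for let-7c-5p, beside a median of all 222 tested miRNAs of -0.23 on the log2 scale. Both falls were lost, and turned to differences of 0.11 and 0.24, when arrays were scaled on all probes, a setting that moved the median of all tested miRNAs to 0.64. Set against the median of all tested miRNAs, let-7b-5p stood at -0.53 and let-7c-5p at -0.39 (log2). A single factor per array cancels in this comparison, so scaling on all probes, spike-in scaling and no scaling give the same values by construction. Of the scalings tried, only quantile normalization (-0.39 and -0.38) and cyclic loess (-0.54 and -0.40) could differ.

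Values below are log2 of processed intensity after each array was divided by the 75th percentile of its commonly detected probes. let-7b-5p measured 4.20, 3.92, 4.21 and 4.19 in normal 1 to 4, against 3.36, 3.61, 3.29 and 3.23 in NcstnΔKC 1 to 4. Every NcstnΔKC sample lay under every normal sample, although normal 2 was the lowest of its group and NcstnΔKC 2 the highest of its own. The means were 4.13 ± 0.14 and 3.37 ± 0.17 (SD, n = 4 each), a difference of -0.76 ± 0.14 (SE, limma adjusted p = 0.00456). It was -0.46 with quantile normalization (limma adjusted p = 0.0417). Its 2 probes gave -0.76 and -0.76. All 18 probes of the family were detected on every array, each from 11 to 15 spots that varied by 0.847% to 13.3% (coefficient of variation), and the 2 probes of a member differed in sign for 1 member, let-7f-5p (-0.08 and 0.01).

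let-7c-5p measured 4.39, 4.16, 4.41 and 4.44 in normal 1 to 4 and, in NcstnΔKC 1 to 4, 3.71, 3.96, 3.66 and 3.57. The groups again did not overlap, and the same pair of samples, normal 2 and NcstnΔKC 2, lay closest to each other. The difference was -0.63 ± 0.14 (SE, limma adjusted p = 0.00972), from 4.35 ± 0.13 to 3.72 ± 0.17 (SD, n = 4 each). Its probes gave -0.65 and -0.57. The call was lost with quantile normalization (-0.45, limma adjusted p = 0.106) and when no filter on detection was applied (limma adjusted p = 0.0619).

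let-7e-5p measured 0.33, 0.25, 0.51 and 0.42 in normal 1 to 4, against 0.45, 0.95, 0.64 and 0.57 in NcstnΔKC 1 to 4. NcstnΔKC 1 fell inside the normal range and the other 3 lay above it. The difference of 0.28 ± 0.15 did not pass the test (limma adjusted p = 0.169), and it was -0.03 when arrays were scaled to the spike-in RNAs.

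The 6 members left did not pass the test either, and the groups overlapped for each. let-7a-5p measured 3.89, 3.64, 4.07 and 4.06 in normal 1 to 4, against 3.55, 3.90, 3.68 and 3.61 in NcstnΔKC 1 to 4. NcstnΔKC 2 and NcstnΔKC 3 lay inside the normal range. let-7a-5p averaged 3.91 ± 0.20 and 3.68 ± 0.16 (SD), a difference of -0.23 ± 0.15 (SE, limma adjusted p = 0.263). The differences were -0.24 ± 0.17 for let-7d-5p, -0.20 ± 0.15 for let-7g-5p and -0.17 ± 0.14 for miR-98-5p, and those of let-7f-5p and let-7i-5p were -0.06 ± 0.16 and 0.02 ± 0.17 (limma adjusted p from 0.299 to 0.896 for these 5). let-7f-5p measured 3.33, 3.14, 3.62 and 3.58 in the normal samples and 3.19, 3.54, 3.38 and 3.31 in the NcstnΔKC samples. let-7i-5p, with 2.27, 2.13, 2.63 and 2.64 against 2.26, 2.63, 2.43 and 2.45, had all NcstnΔKC values inside the normal range. let-7g-5p spanned 1.98 to 2.36 in normal and 1.91 to 2.11 in NcstnΔKC skin, and miR-98-5p -2.03 to -1.64 and -2.07 to -1.87. Within the normal group all 6 of these members were higher in normal 3 and 4 than in normal 1 and 2. let-7d-5p, for example, measured 2.10, 1.97, 2.57 and 2.47 in normal 1 to 4. NcstnΔKC samples were closer together, with let-7d-5p at 1.90, 2.22, 2.03 and 2.02. The signs of these small differences depended on the scaling: let-7a-5p, let-7d-5p, let-7f-5p and let-7g-5p were positive with quantile normalization, and all 6 were positive with scaling on all probes. let-7i-5p was negative without scaling (-0.24) and with spike-in scaling (-0.28). Without scaling, 4 of them were called lower, let-7a-5p (-0.49, limma adjusted p = 0.0266), let-7d-5p (-0.50, 0.0377), let-7g-5p (-0.46, 0.0352) and miR-98-5p (-0.43, 0.0374), when the median of all tested miRNAs was -0.49. let-7a-5p was also called with spike-in scaling (-0.53, limma adjusted p = 0.0389), and the same 4 with array weights (limma adjusted p from 0.0148 to 0.0270).

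**Figure D1:**
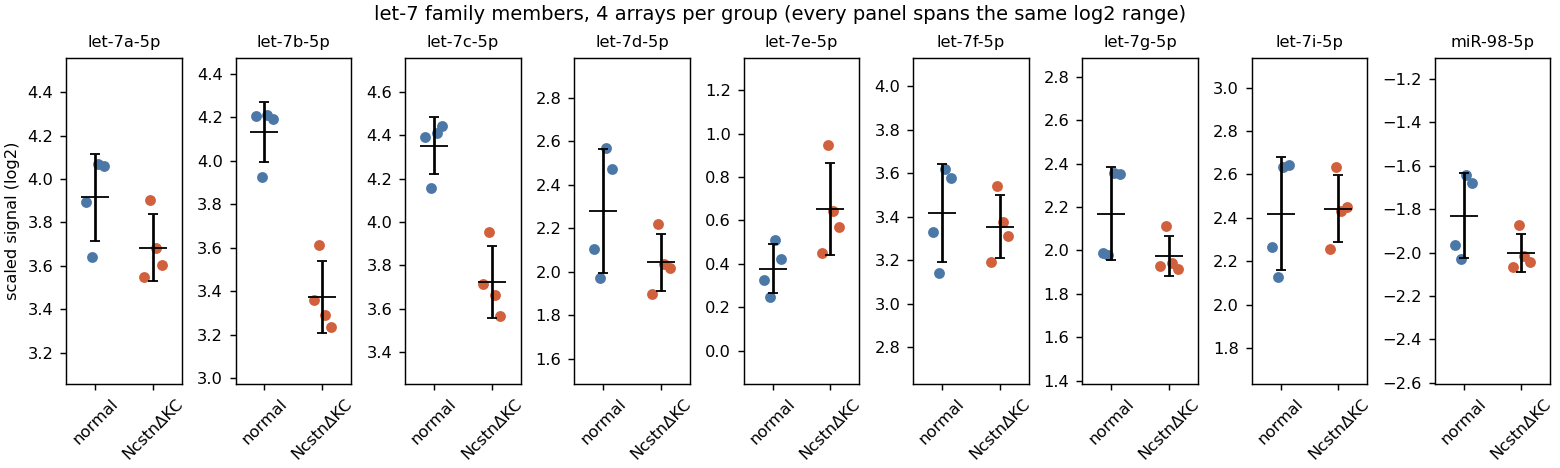
Scaled log2 intensity of each let-7 member on each array, with normal and NcstnΔKC samples as points and group means as bars. let-7b-5p and let-7c-5p show groups that do not overlap, at 4.13 against 3.37 and 4.35 against 3.72; scaling on all probes turned the sign of both.

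Across all 222 tested miRNAs, 42.8% were called, 14.9% as higher and 27.9% as lower, so 2 of 9 members is a smaller share than the background of calls. Groups without overlap occurred in 36.9% of tested miRNAs, 23.4% of them as lower in NcstnΔKC skin, and in the same 2 members. The number of all miRNAs called fell from 95 to 59 when NcstnΔKC 3 was left out, while the members called stayed at 2 under each left-out sample. The 9 differences had a mean of -0.22 and a median of -0.20, beside the median of -0.23 over all tested miRNAs.

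**Figure D2:**
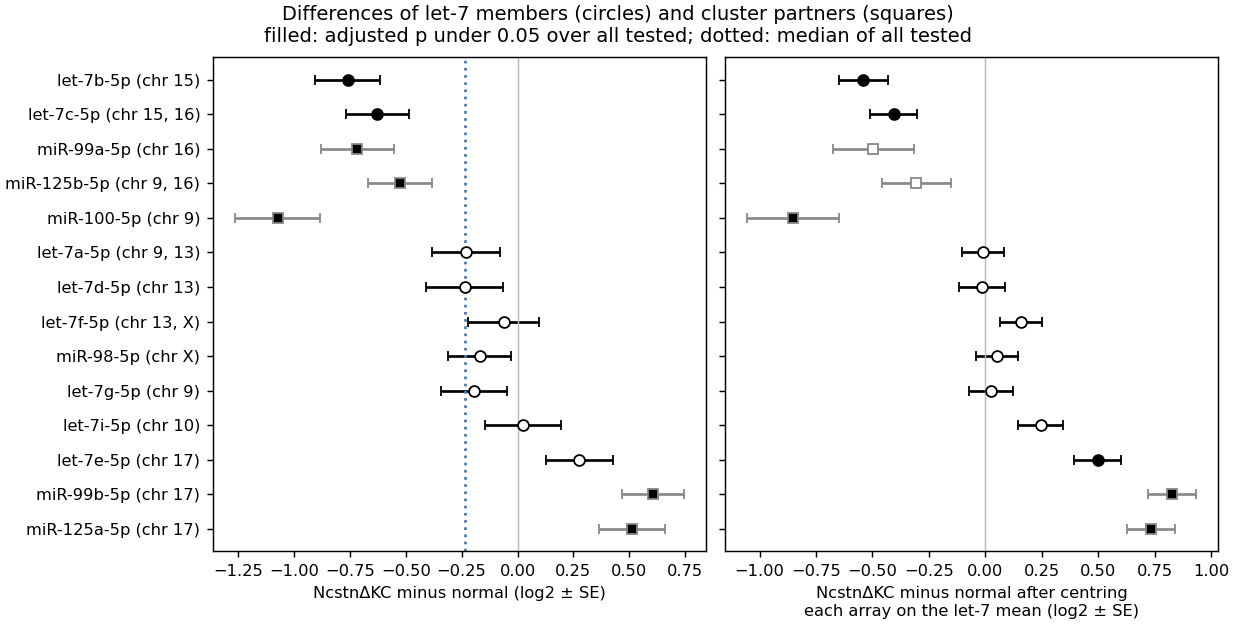
Differences of NcstnΔKC minus normal skin in log2 intensity for the members (circles) and cluster partners (squares), as reported (left) and after subtraction of the family mean on each array (right), with standard errors. Filled symbols passed the test. let-7b-5p and let-7c-5p lie at -0.76 and -0.63 and let-7e-5p at 0.28, on either side of the median of all tested miRNAs at -0.23; with scaling on all probes the first 2 were 0.11 and 0.24, and let-7e-5p was -0.03 with spike-in scaling.

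The comparison among members does not depend on a scaling factor per array, since such a factor cancels in a ratio of members on the same array. On each array the mean log2 value of the 9 members was therefore subtracted from every miRNA. let-7b-5p fell by 0.54 ± 0.11 relative to that mean (limma adjusted p = 0.00626), from 1.92, 1.79, 1.69 and 1.69 in normal 1 to 4 to 1.33, 1.27, 1.17 and 1.17 in NcstnΔKC 1 to 4. let-7c-5p fell by 0.41 ± 0.11 (limma adjusted p = 0.0209), from 2.11, 2.03, 1.89 and 1.95 to 1.68, 1.62, 1.55 and 1.50. let-7e-5p rose by 0.50 ± 0.10 (limma adjusted p = 0.00733), from -1.96, -1.88, -2.02 and -2.07 to -1.58, -1.39, -1.47 and -1.50. These 3 groups of values did not overlap, and the family mean contains the 3 members themselves. Of all tested miRNAs, 32% were called after this subtraction, 17.6% as higher and 14.4% as lower, beside 3 of 9 members.

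The rise of let-7e-5p relative to the family was lost with quantile normalization (0.31, limma adjusted p = 0.117). The fall of let-7c-5p relative to the family no longer passed when any 1 of normal 1, normal 4, NcstnΔKC 3 and NcstnΔKC 4 was left out (limma adjusted p from 0.0518 to 0.0750), with quantile normalization (0.106) and with no filter (0.0626). let-7i-5p (0.24 ± 0.10, limma adjusted p = 0.0955) and let-7f-5p (0.16 ± 0.09, limma adjusted p = 0.225) lay above the family mean's change without overlap of the groups but did not pass the test. Under other settings, let-7i-5p passed in 2 of 23 (lowest limma adjusted p = 0.0337). Groups without overlap after the subtraction occurred in 33.8% of tested miRNAs, beside 5 of 9 members. let-7a-5p, let-7d-5p, let-7g-5p and miR-98-5p moved with the family mean to within 0.05 (log2) as scaled here, and their groups overlapped. miR-98-5p was 0.19 above it with normexp background correction and let-7a-5p 0.11 above it with quantile normalization, and neither passed.

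Pairs of members were then compared through the log2 ratio within each array. Of the 36 pairs, 26 had groups without overlap, with the smallest p that an exact two-sided permutation test over the 70 labelings allows, 0.0286 (adjusted over the 36 pairs, 0.0396). That is 72.2% of the pairs, beside 34.9% of the 24531 pairs of all tested miRNAs. The pairs reuse the same members and arrays, so the 36 are not independent tests, and the difference between these shares was not tested. All 21 pairs with let-7b-5p, let-7c-5p or let-7e-5p were separated, and 5 of the other 15. Those members had been picked out above by their changes in the same values. With quantile normalization 6 of the 36 pairs were separated.

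The widest change was in the ratio of let-7b-5p to let-7e-5p, which went from 3.76 ± 0.09 in normal skin to 2.72 ± 0.12 in NcstnΔKC skin (SD, n = 4 each), a difference of -1.04. let-7c-5p to let-7e-5p changed by -0.90. All 14 pairs of let-7b-5p or let-7c-5p with another member were separated, by 0.39 to 1.04 in size. let-7b-5p also differed from let-7c-5p, at -0.22 ± 0.03 in normal and -0.35 ± 0.02 in NcstnΔKC skin, a change of -0.13 without overlap.

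let-7a-5p, let-7d-5p, let-7g-5p and miR-98-5p gave no separated pair among their 6 (exact permutation p from 0.2 to 0.914), with changes of 0.0054 to 0.0659 in size. These 4 were grouped because they moved alike in the same values, so small changes in their ratios follow from that choice. Of these 4, let-7a-5p and let-7d-5p share the chromosome 13 cluster. let-7f-5p, the third member of that cluster, rose relative to let-7a-5p and let-7d-5p by 0.17 in each case, without overlap. let-7f-5p and miR-98-5p, which share the chromosome X locus, changed relative to each other by 0.11 (exact permutation p = 0.114, adjusted over the 36 pairs, 0.137), and their groups overlapped. let-7g-5p and let-7i-5p, each the single let-7 hairpin of its locus, changed relative to each other by -0.22 without overlap. The separated pairs outside those with let-7b-5p, let-7c-5p or let-7e-5p all involve let-7f-5p or let-7i-5p.

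**Figure D3:**
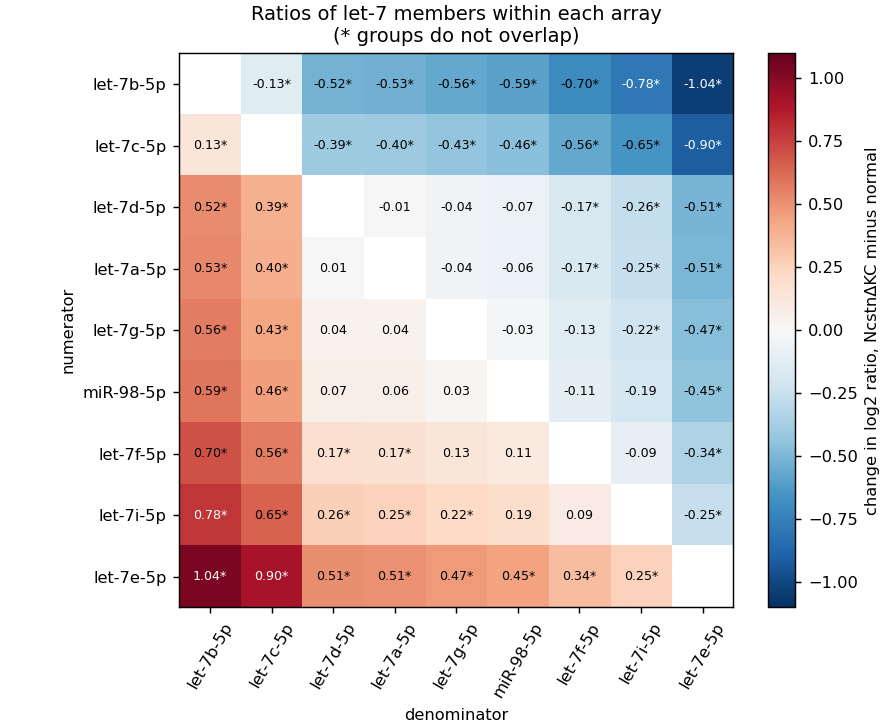
Change, NcstnΔKC minus normal, in the log2 ratio of each pair of members, row over column, with a star where the groups do not overlap. The pairs with let-7b-5p, let-7c-5p or let-7e-5p, 21 in all, are each marked, and the 6 pairs among let-7a-5p, let-7d-5p, let-7g-5p and miR-98-5p are not. Both sets of members were grouped by their changes in the same values, which fixes this contrast in part.

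As a share of the summed intensity of detected miRNAs, the 9 members held 19.0%, 14.1%, 17.4% and 17.8% in normal 1 to 4 and, in NcstnΔKC 1 to 4, 12.7%, 15.1%, 13.4% and 12.7%. The groups overlapped, because normal 2 lay under NcstnΔKC 2. The means were 17.1% ± 2.13 and 13.5% ± 1.11 (SD, n = 4 each), a difference of -3.60 percentage points that is described here with no test. It ranged from -4.60 to -2.95 points as single samples were left out. With the 5 brightest other miRNAs taken out of the denominator (miR-6366, miR-3963, miR-21a-5p, miR-1a-3p and miR-205-5p), the share was 25.2% ± 2.55 and 23.9% ± 1.80 and the difference -1.26 points. With the striated muscle miRNAs and miR-21a-5p taken out, the difference was -4.49 points.

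let-7b-5p and let-7c-5p made up most of that difference, at -1.49 and -1.48 points of the detected signal. let-7a-5p contributed -0.424 points and let-7f-5p -0.0556, and let-7e-5p went the other way by 0.0673. Before any scaling, the summed intensity of the 9 members ran from 82633 in normal 2 to 114626 in normal 4, and from 62438 in NcstnΔKC 4 to 67390 in NcstnΔKC 1. The NcstnΔKC samples were all lower, and the summed intensity of all detected miRNAs was also lower on average, 484557 ± 37458 against 594893 ± 49979 (SD, n = 4 each).

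Within the family's own signal, let-7b-5p held 21.9% ± 1.14 in normal and 16.7% ± 0.75 in NcstnΔKC skin, and let-7c-5p 25.5% ± 1.11 and 21.3% ± 0.99 (SD, n = 4 each). let-7f-5p went from 13.3% ± 0.59 to 16.5% ± 0.65, let-7i-5p from 6.69% ± 0.51 to 8.78% ± 0.47 and let-7e-5p from 1.62% ± 0.09 to 2.54% ± 0.14. let-7a-5p went from 18.8% to 20.7%. The groups did not overlap for any member except let-7d-5p (6.08% and 6.65%), beside 35.6% of all tested miRNAs when their intensity was divided by the same family sum. The sum is made of the members themselves, which ties their shares to each other. Shares of a whole move against each other, so a lower share of some members raises that of the others.

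**Figure D4:**
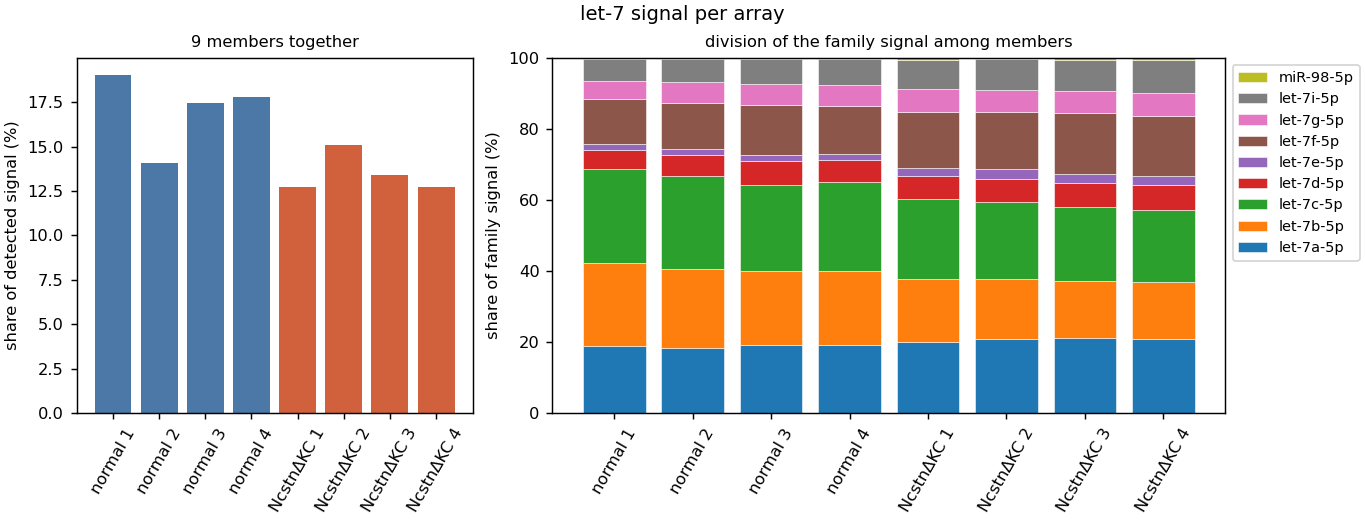
Share of the detected signal held by the 9 members on each array, and each member's share of the family's signal, in percent. The family's share averages 17.1% in normal and 13.5% in NcstnΔKC skin with overlapping groups, and let-7b-5p and let-7c-5p hold less of the family's signal in NcstnΔKC skin.

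The related miRNAs were taken in 3 lists: the passenger arms of the let-7 hairpins, miRNAs with the let-7 seed together with miR-202-3p, and miRNAs made beside let-7 hairpins. Of the 11 listed 3p arms on the array, none was detected on any array. The seed relatives let-7k and miR-1961 were also detected on none, and neither was let-7j, which is in no list and has the same seed as miR-202-3p. miR-202-3p, whose seed differs from that of let-7 in 1 base (aGAGGUAUagcgcaugggaaga), measured -2.53, -2.56, -2.28 and -2.02 in normal 1 to 4, against -2.95, -3.02, -2.78 and -2.77 in NcstnΔKC 1 to 4. It fell by 0.54 ± 0.16 (limma adjusted p = 0.0291) without overlap, but the call needed each of normal 3, normal 4, NcstnΔKC 1, NcstnΔKC 2 and NcstnΔKC 3 (limma adjusted p from 0.0517 to 0.0744 with 1 of them left out), and the sign turned with scaling on all probes (0.33). It was also lost with normexp (-0.14, limma adjusted p = 0.284), quantile normalization (-0.33, 0.194) and cyclic loess (-0.40, 0.120), in the series matrix (-0.56, 0.116) and with no filter (0.222).

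Of the 11 cluster partners on the array, 6 were tested and 5 passed, 3 lower and 2 higher, beside 42.8% of all tested miRNAs. miR-100-5p, the neighbour of Mirlet7a-2, fell from -0.52, -0.58, -0.53 and -0.41 to -1.13, -1.48, -1.79 and -1.94, a difference of -1.07 ± 0.19 (limma adjusted p = 0.00402) that was -0.20 and not called with scaling on all probes (0.893). miR-99a-5p, the neighbour of Mirlet7c-1, fell by 0.72 ± 0.16 (limma adjusted p = 0.00972), from 0.99 to 0.27, and turned to 0.15 with scaling on all probes. miR-125b-5p, made at both of those loci, fell by 0.53 ± 0.14 (limma adjusted p = 0.0203), a call that was lost without normal 4, NcstnΔKC 3 or NcstnΔKC 4 (limma adjusted p from 0.0523 to 0.0689) and turned to 0.34 with scaling on all probes. It was also lost with quantile normalization (-0.23, limma adjusted p = 0.126) and cyclic loess (-0.40, 0.0563).

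The partners of Mirlet7e moved the other way. miR-99b-5p rose from -2.77, -2.69, -2.55 and -2.55 to -2.20, -1.81, -2.03 and -2.12, a difference of 0.60 ± 0.14 (limma adjusted p = 0.0101). The call was lost with spike-in scaling (0.30, limma adjusted p = 0.151) and with scaling on all probes (1.47, 0.204), and the difference was 0.34 without scaling and 1.03 in the series matrix, both called. miR-125a-5p rose by 0.51 ± 0.15 (limma adjusted p = 0.0249), a call lost without normal 1, NcstnΔKC 2 or NcstnΔKC 3 (limma adjusted p from 0.0518 to 0.0702), without scaling (0.25, 0.132), with spike-in scaling (0.21, 0.313), with the software's totals (0.42, 0.0838) and with scaling on all probes (1.38, 0.223). In the series matrix it was 0.83 and called. With no filter on detection, none of the 5 partners passed (limma adjusted p from 0.0615 to 0.142). The other arm of the same hairpin, miR-125a-3p, differed by -0.06 ± 0.20 (limma adjusted p = 0.793). Without NcstnΔKC 3, the number called over the 3 lists was 3 in place of 6. Relative to the let-7 family mean, miR-99b-5p rose by 0.82 (limma adjusted p = 0.00171), miR-125a-5p rose by 0.73 (0.0024) and miR-100-5p fell by 0.85 (0.0144), while miR-99a-5p at -0.50 (0.0657) and miR-125b-5p at -0.31 (0.157) did not pass.

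Next, 6 ratios of a let-7 member to a partner at its own locus were compared by exact two-sided permutation, chosen after the values above were seen. let-7c-5p to miR-99a-5p changed by 0.09 (exact p = 0.543) and to miR-125b-5p by -0.10 (exact p = 0.314). let-7a-5p to miR-100-5p changed by 0.84 without overlap, and let-7e-5p to miR-99b-5p and to miR-125a-5p changed by -0.33 and -0.24 without overlap. Each of these 3 had exact p = 0.0286, the smallest possible, and 0.0571 after adjustment over the 6. let-7a-5p to miR-125b-5p changed by 0.30 (exact p = 0.114). let-7a-5p and let-7c-5p have a second hairpin elsewhere, so these ratios mix loci.

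The 5 other tested miRNAs whose values over the 8 arrays followed the family mean most closely were miR-26b-5p, miR-103-3p, miR-96-5p, miR-24-3p and miR-151-5p. Their root mean square distances from it were 0.0699, 0.0979, 0.0985, 0.106 and 0.116 on the log2 scale, after each was centred over the arrays. None passed the test of groups, with differences from -0.35 to -0.06 (limma adjusted p from 0.0815 to 0.762). They were chosen on the same values, group difference included, so differences near that of the family mean follow in part from the choice. Among the members, let-7a-5p lay at 0.0302, miR-98-5p at 0.0468 and let-7g-5p at 0.0548, while let-7c-5p, let-7e-5p and let-7b-5p lay at 0.218, 0.258 and 0.282.

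**Figure D5:**
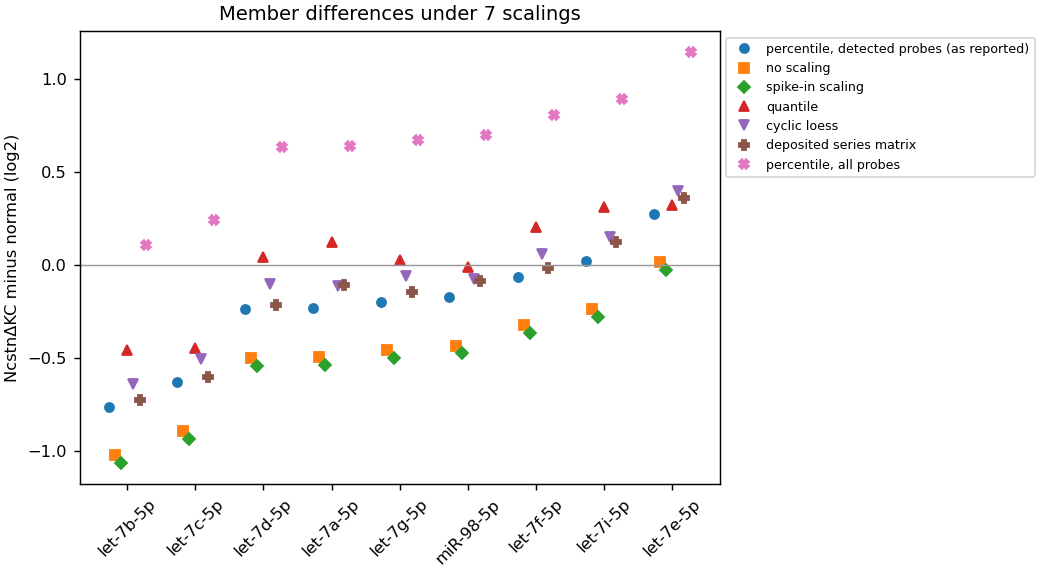
Difference of each member, NcstnΔKC minus normal in log2 intensity, under each of the 6 ways of scaling arrays and in the deposited series matrix. The whole set shifts with the scaling, as the median of all tested miRNAs does, from -0.54 with spike-in scaling to 0.64 with all probes, and let-7b-5p and let-7c-5p stay lowest and let-7e-5p highest among the members.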

How the data were processed

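The 8 arrays were 1-colour Cy3 hybridisations of total RNA extracted with a mirVana kit, per the labels' protocols. Per the file headers, Agilent Feature Extraction 10.7.1.1 gave a processed intensity per spot after background subtraction, with no normalization between arrays, and positions refer to mm9. The deposited series matrix holds log2 values (medians 3.24 to 3.25 per array, r from 0.883 to 0.909 with the logged total signals of the scanner software). Its normalization and centring stay unknown here, and it served as an alternative.

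Control and outlier spots (2223 to 2940 per array) were left out, and 0 spots were saturated. Detection of a probe required 50% of its spots or more to be flagged well above background. Probe means were scaled by the 75th percentile, on each array, of the 301 probes detected on all arrays, summed per miRNA, raised to a floor of 0.0318 (log2 -4.97) and logged. The 222 miRNAs detected on all 4 arrays of a group were tested with limma 3.58.1 in R 4.3.3 (group alone, Benjamini-Hochberg over all 222, threshold 0.05; prior degrees of freedom 2.46). No member sat at the floor. The test was tried on simulated data. Single ratios were compared by exact two-sided permutation.

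The text names the 9 members, every tested miRNA of the 3 related lists and the 5 miRNAs closest to the family mean. Cell type markers appear as summed shares. Members and lists were chosen with earlier results of these data known. Same-numbered samples of the 2 groups were checked for pairing (correlations of deviations -0.44, 0.20, -0.26 and -0.23) and were not treated as pairs.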

Additional observations from a re-analysis of the deposited data

Results flagged for a closer look

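For let-7b-5p in normal skin, normal 2 stood apart at 3.92 against 4.19 to 4.21 in the other 3 samples: its gap to the nearest was 0.933 of the group's range. For let-7g-5p in NcstnΔKC skin, NcstnΔKC 2 stood apart at 2.11 against 1.91 to 1.94, with a gap of 0.869 of the range. Of 34 sets of 4 values examined, 2 passed Dixon's 95% limit, which chance passes in about 1 of 20. Without normal 2, let-7b-5p differed by -0.83 between the groups, and without NcstnΔKC 2, let-7g-5p differed by -0.24.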

How the results depend on the processing

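The number of all tested miRNAs called (95, 33 higher and 62 lower) was 12 with scaling on all probes, 52 with the software's totals, 61 over miRNAs detected on all 8 arrays, 19 with no filter and 149 with array weights, whose fit did not fully converge; it was 59 to 94 as single samples were left out. The split of higher to lower calls was 37 to 35 with quantile normalization, 39 to 38 with cyclic loess, 24 to 101 without scaling, 18 to 91 with spike-in scaling (4 RNAs), 36 to 28 with normexp, 19 to 33 with totals, 36 to 36 in the series matrix and 12 to 0 on all probes. Of the members, 2 were called as reported, 0 on all probes, 1 with quantile normalization, 1 with no filter, 3 with spike-in scaling, 6 without scaling and 6 with array weights. The related lists gave 6 calls, 0 on all probes, 0 with no filter and 3 to 6 as samples were left out. After subtraction of the family mean, quantile normalization, chosen with cyclic loess after the data were seen, gave 1 member called, and 6 separated pairs.

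These differences turned sign. On all probes: let-7a-5p 0.64, let-7b-5p 0.11, let-7c-5p 0.24, let-7d-5p 0.63, let-7f-5p 0.81, let-7g-5p 0.67, miR-98-5p 0.70, miR-202-3p 0.33, miR-99a-5p 0.15, miR-125b-5p 0.34, miR-125a-3p 0.81, miR-26b-5p 0.72, miR-103-3p 0.63, miR-96-5p 0.70, miR-24-3p 0.81 and miR-151-5p 0.52. With quantile normalization: let-7a-5p 0.13, let-7d-5p 0.041, let-7f-5p 0.20, let-7g-5p 0.026, miR-125a-3p 0.12 and miR-24-3p 0.31, and after centring let-7a-5p 0.11, let-7d-5p 0.028 and miR-98-5p -0.024. With cyclic loess: let-7f-5p 0.057, miR-125a-3p 0.057 and miR-24-3p 0.068. let-7i-5p was -0.24 without scaling, -0.28 with spike-in scaling (let-7e-5p -0.028), -0.070 with totals and -0.11 with array weights. miR-125a-3p was 0.14 with normexp, 0.039 with probe means of log2 (centred let-7a-5p 0.013) and 0.13 in the series matrix (miR-24-3p 0.064, centred let-7a-5p 0.048). As samples were left out, let-7i-5p ranged from -0.073 to 0.098, let-7f-5p from -0.15 to 0.0049, miR-24-3p from -0.15 to 0.011 and miR-125a-3p from -0.19 to 0.034, and after centring let-7a-5p from -0.026 to 0.0078, let-7d-5p from -0.049 to 0.025 and let-7g-5p from -0.0100 to 0.046. Without replicate 1 of both groups, centred let-7a-5p was 0.018 and let-7g-5p -0.031. Each of these differences had failed the test as reported, except let-7b-5p, let-7c-5p, miR-202-3p, miR-99a-5p and miR-125b-5p on all probes. The cause was not tested.

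The family's share differed by -3.60 points as reported, -1.26 without the 5 brightest others and -4.60 to -2.95 as samples were left out. A fit with the replicate number as a block gave 71 calls over all miRNAs, 2 among members, 4 in the related lists and 2 members after centring, let-7c-5p being lost (adjusted p = 0.0771). Slide row, 4 samples per group and probes 1 or 2 bases from a relative limit these values.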
